A study of Capsicum annuum and Capsicum chinense and Capsicum annuum var. glabriusculum with 33 samples.

Results

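Mature green fruit of 9 inbred lines of Capsicum annuum was compared gene by gene, to describe how much transcript levels varied from line to line and which lines were alike. The 9 libraries were all C. annuum libraries labelled as mature green among the 33 libraries of the series, which also cover other organs and fruit stages of the line Zunla 1, ripe fruit of Zunla 49 and Zunla 7, the C. chinense line HYL and the wild pepper chiltepin. RNA was selected by its poly(A) tail and sequenced as paired reads, and the values are RPKM, read numbers scaled by gene length and sequencing depth. The lines were Zunla 1 (ZL1), Zunla 9 (ZJ9), Zunla 32 (ZJ32), Zunla 49 (ZJ49), 11c255, 11c320, G16, T803 and a library titled SP3 whose other labels name the line SP163. The labels name no transgene, mutation or treatment for any of them, and each line was represented by 1 library, so a difference between 2 lines could not be separated from a difference between 2 fruit samples of the same line. The number of plants or fruits behind a library is not given in the sources used here.

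Capsicum annuum is the species of most sweet and hot peppers in cultivation, and an inbred line is made by repeated self-pollination, so that its plants are nearly alike in genotype. Mature green is the stage at which a pepper has reached its final size but has not begun to change colour. At breaker the first colour shows. During ripening chlorophyll is lost, carotenoids accumulate and the flesh softens, and large groups of genes are switched on or off. The Capana identifiers carry no gene names or functions in the material used here. Genes are therefore characterised by the lines, stages and organs in which they were high.

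Several libraries stood apart before any gene was considered. Read totals recovered from the steps between RPKM values placed ZL1, ZJ9, ZJ32 and ZJ49 in a shallower set of 4 libraries with 14271249 to 15485571 reads. The other 5 lines, 11c255, 11c320, G16, SP3 and T803, formed a deeper set with 25923891 to 31213971 reads. A gene of 1 kb with 3 reads had 0.194 to 0.210 RPKM in the shallower and 0.0961 to 0.116 RPKM in the deeper libraries, which covers counting error only. The depth split coincided with the line names, since all 4 shallower libraries are Zunla lines and none of the deeper ones is, so depth and line origin cannot be told apart. In addition, each of the 4 Zunla libraries was closer to a Zunla 1 library of another fruit stage than to any other line at mature green, as described below. For these libraries line, depth and stage cannot be told apart, and the part of each in the gene counts was not tested.

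Levels of most genes differed only moderately between lines. Among the 21036 genes that reached 1 RPKM in 2 or more lines, the SD of log2(RPKM + 1) over the 9 lines had a median of 0.569, with quartiles of 0.393 and 0.859. The highest line exceeded the lowest by a median of 3.26-fold, and 8177 genes (38.9%) spanned at least 4-fold, on the scale of RPKM + 1. An SD of at least 1 was found for 3769 genes, which is 17.9% of those tested, and an SD of at least 2 for 588 genes (2.80%). At the other end 1162 genes (5.52%) had an SD under 0.25. In all, 14784 genes were at 1 RPKM or more in every line, and 22282 in at least 1.

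The counting error was small beside this spread. The SD that read counting alone would give had a median of 0.0901 over the 20983 genes with a recovered length, and the observed SD was more than 2 times this value in 96.3% of them. Whether the remaining spread came from lines, from plants or from the harvest was not tested, because no line was sampled again at this stage. Among genes averaging 1 RPKM or more, the spread was not simply larger in weakly expressed ones. The scale of log2(RPKM + 1) understates changes of low genes, and tested genes averaging under 1 RPKM are not included here. The median SD was 0.616 at a mean of 1 to 10 RPKM, 0.526 at 10 to 100 RPKM, 0.672 at 100 to 1000 RPKM and 1.34 at 1000 RPKM and more. Of the 103 genes in this last class 63 (61.2%) had an SD of at least 1. The classes were set by the mean over the same 9 lines, so 1 high line can place a variable gene in a high class. Capana07g000107, for example, had a mean of 8143 RPKM and a median of 96.1 RPKM. How much of the larger SD in the highest class comes from this was not tested.

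**Figure D1:**
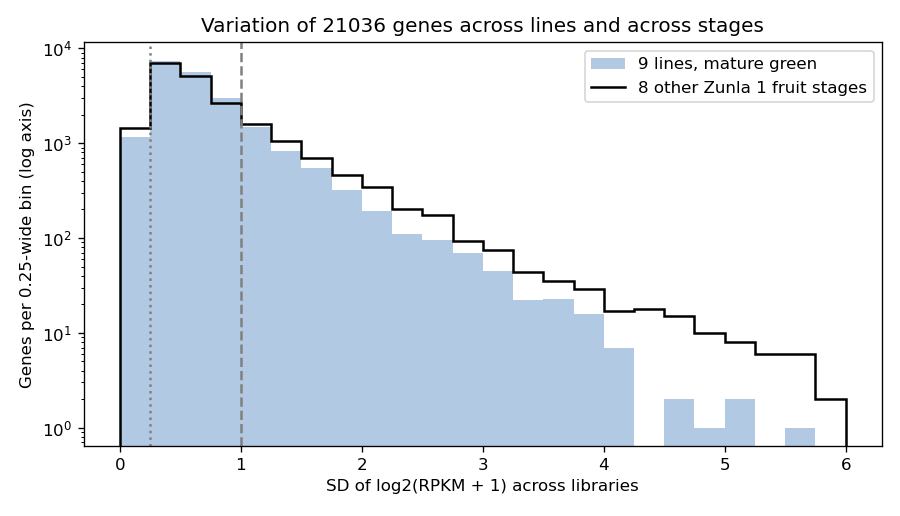
The horizontal axis is the SD of log2(RPKM + 1) and the vertical axis, on a log scale, the number of genes per bin, for the 9 mature green lines (filled) and for the 8 other fruit stages of Zunla 1 (black line). The dashed and dotted lines mark SDs of 1 and 0.25; the median was 0.569 over lines and 0.582 over stages.

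The 2 genes with the largest spread between lines also changed strongly along the Zunla 1 fruit series. Capana01g003497 had the highest SD, 5.52. Its level was 18802 RPKM in ZL1, 11271 RPKM in ZJ49, 242 RPKM in SP3, 16.6 RPKM in ZJ32 and 13.4 RPKM in ZJ9. In the other 4 lines it was at 0.328 to 0.783 RPKM. ZL1 and ZJ49 were thus high, SP3 lay between, and T803, 11c255, 11c320 and G16 were low. In Zunla 1 fruit of other stages the same gene was at 0 to 6.72 RPKM up to 4 to 5 cm in length, and at 87681 RPKM at breaker, with 3023 to 33262 RPKM afterwards.

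The second gene, Capana07g000107, had the opposite order and an SD of 5.14. It was at 57293 RPKM in ZJ9, where it was the most abundant gene, at 12682 RPKM in ZJ32, 2113 RPKM in T803 and 1018 RPKM in G16. The lines 11c255, 11c320 and ZL1 had 96.1, 40.5 and 38.3 RPKM, and ZJ49 and SP3 had 1.81 and 1.20 RPKM. High and low lines of this gene therefore cut across both depth sets. In growing Zunla 1 fruit it was at 119064 RPKM at 0 to 1 cm and at 11793 to 13334 RPKM from 3 to 5 cm, and it was at 22.1 RPKM at breaker.

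Among genes averaging 10 RPKM or more, Capana02g001884 had the lowest SD, 0.092, with 30.6 RPKM in the lowest line (ZL1), a median of 33.7 RPKM and 36.9 RPKM in the highest (G16). Its counting SD was 0.037. Over the 8 other Zunla 1 fruit stages it stayed between 28.5 and 41.3 RPKM, and in the 5 other Zunla 1 organs between 19.7 and 37.5 RPKM. Capana03g000644 followed with an SD of 0.104, a median of 11.5 RPKM and 12.5 RPKM in the highest line (11c255). All 9 lines were close together for both genes.

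**Figure D2:**
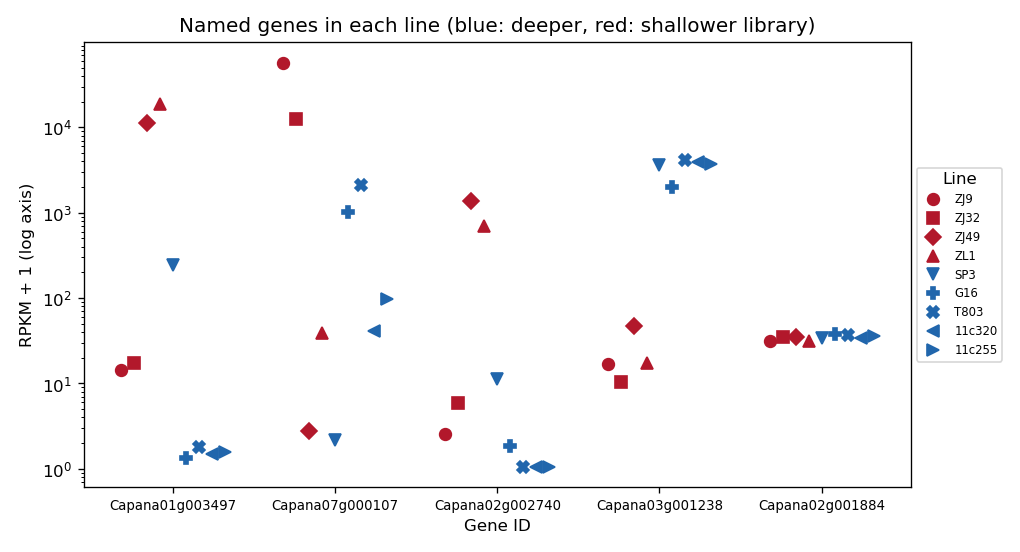
Each point is 1 line (symbol) for 1 gene (horizontal axis), in RPKM + 1 on a log axis, with deeper libraries in blue and shallower ones in red. Capana01g003497 spans 0.328 to 18802 RPKM, Capana03g001238 separates the 2 depth sets, and Capana02g001884 stays between 30.6 and 36.9 RPKM.

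Of the 100 genes with the highest SD, from 3.07 to 5.52, 87 were tested between ripe and growing Zunla 1 fruit, libraries that include none of the 9 lines at mature green. Of these 37 rose with ripening, 24 fell and 26 were not called. That test compared fruit 3, 5 and 7 days after breaker with the 4 growing stages (limma on log2(RPKM + 1), Benjamini-Hochberg adjusted p under 0.05, stages standing in for replicates) and called 35.8% of 19429 genes, of which 1556 rose (8.01%) and 5402 fell (27.8%). With median-of-ratios scaling, under which the median log2 change over all tested genes went from -0.40 to -0.04, the split was 2792 rises and 3541 falls. ZL1 was the highest line for 44 of the 100 genes and ZJ9 the lowest for 34.

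Genes that respond to ripening in Zunla 1 varied more often between lines than genes that do not. Among the 19056 genes tested for both, an SD of at least 1 was found in 32.6% of the 1483 rises, 25.9% of the 5319 falls and 11.3% of the 12254 genes without a call, against 17.0% of all. The median SD was 0.726 for rises, 0.685 for falls and 0.497 for genes without a call. These are descriptions, since Zunla 1 supplies both the ripening call and 1 of the 9 lines.

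The 9 lines were grouped by overall similarity over the same 21036 genes. Across the 36 pairs, Pearson's r had a median of 0.842 and ran from 0.739 between ZL1 and ZJ9 to 0.964 between 11c255 and 11c320. The lines 11c255, 11c320 and T803 formed a close trio with r of at least 0.942, and the median SD within it was 0.234. G16 and SP3 joined them next, with r of 0.902 between these 2 lines. Within the shallower set the closest pair was ZJ32 and ZJ9 at 0.869, and ZL1 had its highest r with SP3, a deeper library, at 0.878. Pairs of libraries differ in depth and share the same gene models, and genes are not independent replicates, so these values carry no p.

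**Figure D3:**
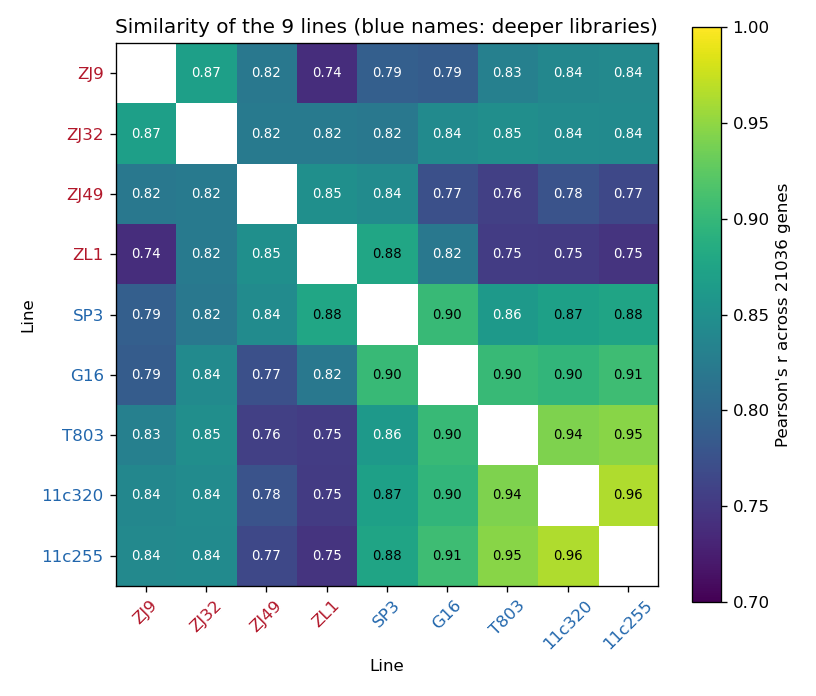
Pearson's r of log2(RPKM + 1) across 21036 genes for each pair of the 9 lines, printed in each cell, with deeper libraries named in blue and shallower ones in red. The trio of 11c255, 11c320 and T803 at the lower right reaches 0.964, and ZL1 with ZJ9 is lowest at 0.739.

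The 5 deeper lines were more alike than other pairs of lines. The mean r was 0.907 for the 10 pairs of deeper lines, 0.821 for the 6 pairs of shallower lines and 0.808 for the 20 mixed pairs. The mean root mean square log2 difference was 0.889 for deeper, 1.30 for shallower and 1.32 for mixed pairs, so shallower lines differed about as much from each other as from deeper ones. Pooled within the sets it was 1.04, a gap to the mixed pairs of 0.280 (exact permutation over libraries, one-sided p = 0.00794, the lowest value this design can give). With only 1 line of the trio kept, a setting chosen after seeing the data, the gap was 0.118 (exact permutation p = 0.114). The spread was also unequal. The median SD was 0.549 over the 4 shallower lines and 0.333 over the 5 deeper ones, and 4164 (19.8%) and 1930 (9.17%) genes had an SD of at least 1 within these sets.

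The first principal component held 36.7% of the variance and ran from 11c255 at -81.1 over G16, ZJ9, ZJ32 and SP3 to ZL1 at 108 and ZJ49 at 117. The second component held 22.6% and placed ZJ9 at 114 opposite SP3 at -65.6. Mature green fruit of HYL, the C. chinense line, had a mean r of 0.781 with the 9 lines, from 0.747 to 0.867, and was closest to ZJ49. The mean r of a C. annuum line with the other 8 was 0.795 in ZL1 and up to 0.861, not far above the value of the HYL library. This comparison rests on 1 HYL library.

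Set against the 8 other fruit stages of Zunla 1, the mature green libraries did not all match the same stage. ZJ9 was most like Zunla 1 fruit of 1 to 3 cm (r = 0.904) and ZJ32 most like fruit of 4 to 5 cm (r = 0.925). ZL1 itself was most like breaker fruit of the same line (r = 0.934), and ZJ49 most like fruit 3 days after breaker (r = 0.938). In these 4 libraries the r with a Zunla 1 stage exceeded that with any other line at mature green, which was at most 0.878. The 5 deeper lines were nearer to another line than to any Zunla 1 stage. Their closest stage was fruit of 4 to 5 cm for 11c255, 11c320, T803 and G16 (r = 0.829 to 0.865) and breaker for SP3 (r = 0.845). The Zunla 1 stages are all shallower libraries, so depth and line origin are shared on 1 side of this contrast.

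**Figure D4:**
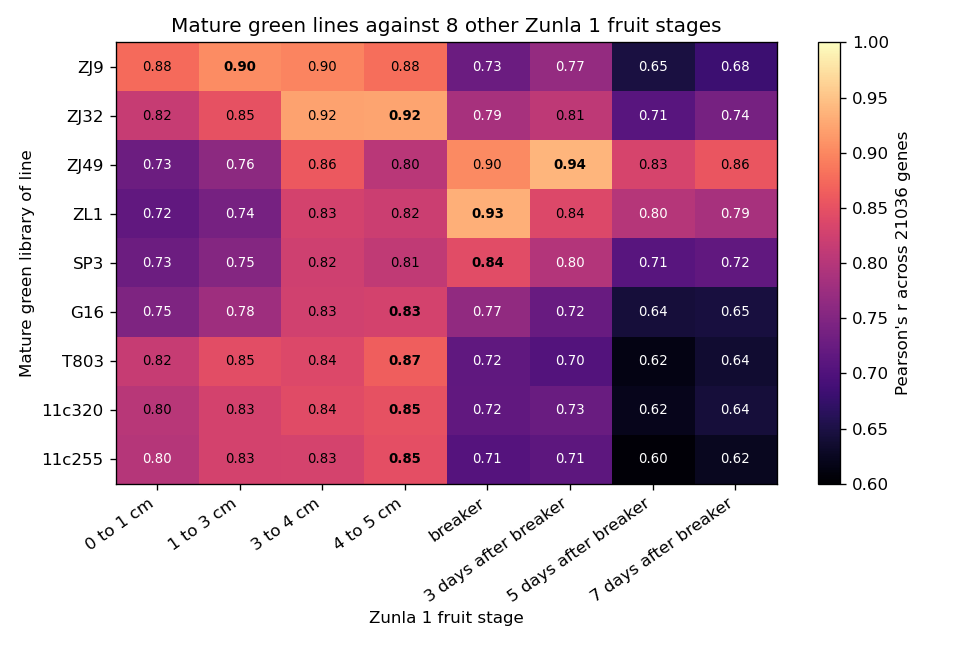
Pearson's r of log2(RPKM + 1) across 21036 genes between each mature green line (rows) and each of 8 other fruit stages of Zunla 1 (columns), with the highest value of a row in bold. The bold cell moves from 1 to 3 cm for ZJ9 (0.904) to 3 days after breaker for ZJ49 (0.938).

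A ripening position summarised this order. It is the mean log2 level of 1287 Zunla 1 ripening rises minus that of 4341 falls, each of at least 2-fold, set to 0% in growing and to 100% in ripe Zunla 1 fruit. ZJ9 lay at 4.14%, T803 at 5.99%, 11c255 at 8.53% and 11c320 at 9.64%. ZJ32 and G16 lay at 19.0% and 19.4% and SP3 at 33.02%. ZL1 lay at 45.2% and ZJ49 at 62.2%, against 70.0% in breaker fruit of Zunla 1. Breaker fruit of chiltepin, however, lay at 3.63%, below all 9 lines, and mature green HYL fruit at 59.2%. A position on this Zunla 1 scale was therefore not shown to stand for the same stage in other lines. The mean over the 9 lines was 23.0% ± 19.98 (SD, n = 9), or 18.1% ± 14.5 (SD, n = 8) without ZJ49. Both depth sets held low lines on this scale, but the highest lines, ZL1 and ZJ49, were both shallower. The deeper lines ran from 5.99% to 33.02%. Under scaling or a pseudocount of 0.1 each line moved by less than the SD between lines. With scaling T803 was the lowest line at 3.90%, beside ZJ9 at 4.07%.

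Genes that are high in 1 class of Zunla 1 libraries made the contrast concrete. Each list holds genes that average 10 RPKM or more in the class and at least 4-fold above every other class, and none of the listed libraries is a mature green one. The 326 ripe fruit genes summed to 506602 RPKM in ZL1, 210173 RPKM in SP3, 125982 RPKM in ZJ49 and 102920 RPKM in G16. They summed to 29401 RPKM in ZJ32 and to 4299 to 11470 RPKM in ZJ9, T803, 11c255 and 11c320. At 1 RPKM or more were 312 of these genes in ZJ49 and 175 in ZJ9. By summed RPKM the 110 growing fruit genes ran the other way, from 70118 RPKM in ZJ9 and 48998 RPKM in T803 to 7401 RPKM in ZL1 and 6211 RPKM in ZJ49. G16 had 34044 RPKM of this list beside its high sum of ripe fruit genes. The mean log2(RPKM + 1) of the growing fruit genes gave another order. It was 6.11 in G16, 6.07 in ZJ32, 5.70 in T803, 4.50 in ZJ9, 4.02 in ZL1 and 2.46 in ZJ49. Of these genes 107 were at 1 RPKM or more in ZJ32, 80 in ZJ9 and 61 in ZJ49.

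**Figure D5:**
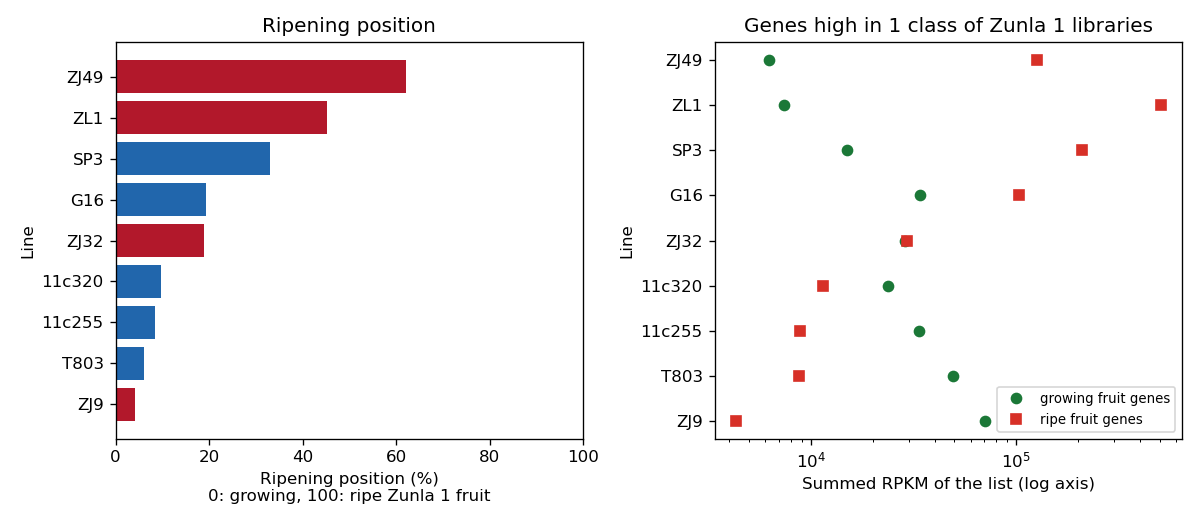
Left, the ripening position of each line in percent of the distance from growing to ripe Zunla 1 fruit (red bars, shallower libraries; blue bars, deeper libraries). Right, the summed RPKM on a log axis of 110 growing fruit genes (green circles) and 326 ripe fruit genes (red squares) in the same lines, where the ripe fruit sum spans 4299 to 506602 RPKM.

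These 2 fruit lists were also the most variable of the lists examined. An SD of at least 1 between lines was found in 81.5% of the 108 growing fruit genes tested and in 81.4% of the 306 ripe fruit genes tested. The corresponding share was 43.4% of 256 root genes, 53.1% of 49 stem genes, 41.8% of 55 leaf genes, 40.0% of 160 bud genes and 55.6% of 18 open flower genes, against 17.9% of all genes tested. The filter on low values kept 256 of 479 root genes and 18 of 64 open flower genes but 306 of 326 ripe fruit genes, so the members that could be tested differ between the lists.

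The median SD was similar over lines and over stages, but an SD of at least 1 was more frequent over stages. Over the 8 lines other than ZL1 the median SD was 0.533, over the 8 Zunla 1 fruit stages other than mature green 0.582, and over the 5 other Zunla 1 organs 0.728. An SD of at least 1 was found for 3548 genes over these lines and for 4891 genes over these stages. The lists shared 2446 genes, which is 68.9% of the line list and 50.0% of the stage list, against 23.3% of all genes in the stage list and 16.9% in the line list. Genes were kept by their level in the mature green lines and not by their level in the stages. Line, depth and stage cannot be told apart for the Zunla lines among these libraries. The part of stage in the SD over lines was not tested.

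A smaller group varied between lines but hardly along the fruit series. Over all 9 lines, 306 genes had an SD of at least 1 and an SD under 0.5 over the 8 Zunla 1 stages, which is 8.12% of the 3769 variable genes and 3.64% of the 8417 genes with such a low stage SD. These limits were chosen after the data were seen. In 106 of the 306 genes every one of those Zunla 1 stages was under 1 RPKM, while 85 genes reached 10 RPKM in at least 1 of them. The line farthest from the median was ZJ9 for 48 genes, ZJ49 for 42, G16 for 39, ZL1 for 35, 11c320 for 33, ZJ32 for 30, T803 for 28, 11c255 for 27 and SP3 for 24. No line dominated this group. The deviation was upward for 36 of 39 genes in G16, 30 of 33 in 11c320, 22 of 24 in SP3 and 23 of 28 in T803. It was upward for 22 of 30 in ZJ32, 16 of 27 in 11c255 and 22 of 42 in ZJ49. Downward deviations were more frequent in ZJ9 (26 of 48) and ZL1 (23 of 35). A gene silent in most lines can deviate only upward.

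Within this group 5 genes were at 10 RPKM or more in all 8 Zunla 1 fruit stages and under 0.1 RPKM in at least 1 line. Capana11g001238 was listed at 0 in ZJ9 and at 48.1 to 138 RPKM in the other 8 lines, and Capana00g003200 was under 0.1 RPKM in ZJ9 and at 6.47 to 36.3 RPKM in the others. Capana00g003967 was under 0.1 RPKM in SP3 alone, with 8.42 to 19.2 RPKM in the other lines. Capana09g001330 was under 0.1 RPKM in 11c255, 11c320, G16 and T803, and at 6.60 to 26.4 RPKM in SP3 and the 4 Zunla lines. Capana05g002372 was at 22.2 to 65.2 RPKM over the Zunla 1 stages and under 0.1 RPKM in the 5 deeper lines and ZJ32. It was at 72.2 RPKM in mature green ZL1 but at 0.401 RPKM in mature green and 0.140 RPKM in ripe ZJ49 fruit. The last 3 of these genes were also listed at 0 in mature green HYL fruit. These 5 genes were chosen after their values were seen, and whether reads of each line match the gene models equally well was not tested.

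The contrast between the 5 deeper and the 4 shallower lines called 2724 genes, or 12.9% of 21036, with limma and Benjamini-Hochberg adjustment. The close trio of 11c255, 11c320 and T803, with r of 0.942 to 0.964, entered it as separate lines. It was not rerun with only 1 line of the trio, so its count and p-values take these lines as independent. Of these 1707 (8.11%) were higher and 1017 (4.83%) lower in the deeper lines. Scaling gave 1776 higher and 1665 lower, so the excess of higher genes shrank from 62.7% to 51.6% of the calls. The 2 sets did not overlap in 3442 genes (16.4%). The count fell to 956 without 11c255, 1162 without 11c320, 1288 without T803 and 1541 without G16, and it rose to 3342 without ZL1. Without ZL1 the balance turned, with 1647 genes higher and 1695 lower in the deeper lines, so the excess of higher genes rested on that library.

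Capana03g001238 had the largest rise. It was at 3748 RPKM in 11c255, 3925 RPKM in 11c320, 4158 RPKM in T803, 3597 RPKM in SP3 and 2000 RPKM in G16. In the shallower lines it was at 46.7 RPKM in ZJ49, 16.3 RPKM in ZL1, 15.9 RPKM in ZJ9 and 9.55 RPKM in ZJ32. The groups were far apart, with means of 3486 ± 857 RPKM (SD, n = 5) in the deeper and 22.1 ± 16.7 RPKM (SD, n = 4) in the shallower lines, and a limma log2 difference of 7.43 (SE 0.431, adjusted p = 0.000161). In the 3 chiltepin libraries, which are also deeper, it was at 48.0 to 63.9 RPKM, and in the 21 shallower libraries outside the lines at 0.885 to 188 RPKM. Neither the deeper chiltepin libraries nor the Zunla 1 stages thus reached the level of the 5 deeper lines.

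The largest fall was Capana01g003498, listed at 0 in all 5 deeper lines and at 4637 RPKM in ZJ49, 2001 RPKM in ZL1, 5.56 RPKM in ZJ9 and 4.71 RPKM in ZJ32. The 2 high lines were those farthest along the ripening position. The limma log2 difference was -7.09 (SE 1.95, adjusted p = 0.0431), and the call was lost in 8 of 12 alternatives, at adjusted p of 0.0623 to 0.0932. In Zunla 1 the gene was listed at 0 in all 4 growing stages and was at 23980 RPKM at breaker.

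Of the 2724 called genes 2556 were also tested for ripening, and 36.4% of these had a ripening call, close to the 35.8% of all genes. In libraries outside the 9 lines, the genes higher in the deeper lines were nearer to the deeper than to the shallower mean in 73.0% of 1707 cases for chiltepin breaker fruit, a deeper library. The share was 26.1% for mature green HYL and 12.1% for ripe Zunla 7 fruit, both shallower. For chiltepin leaf and flower, also deeper, it was 37.7% and 45.7%. For the 1017 genes lower in the deeper lines the shares were 81.2% in chiltepin breaker fruit, 30.4% in HYL and 21.2% in Zunla 7. In chiltepin leaf and flower they were 83.6% and 76.9%. The same share was not computed for genes without a call, so these shares have no background to be set against. Depth, species, stage and organ all differ between these libraries and cannot be told apart here.

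Each line had genes that set it apart from the other 8. ZJ49 had 107 genes at least 4-fold above every other line, followed by ZJ32 with 48, ZJ9 with 37, ZL1 with 33 and G16 with 24. T803 had 10, 11c320 had 9, and 11c255 and SP3 had 3 each. Scaling changed this order, with 89 genes in ZJ49, 78 in ZL1, 48 in ZJ9 and 32 in ZJ32, since ZL1 had a scaling factor of -0.36 on the log2 scale. At least 4-fold below every other line were 45 genes each in ZJ49 and ZJ9, 18 in ZL1 and at most 8 in any other line. A line with a close relative among the 9 can have fewer such genes, since the pair must differ.

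In ZJ49 the gene with the widest gap above was Capana06g000615, at 1300 RPKM against 0.214 to 4.45 RPKM in the others. In Zunla 1 it was at 0 to 3.47 RPKM in growing fruit and at 8086 to 13285 RPKM from 3 days after breaker. The widest gap below was Capana01g001197, listed at 0 in ZJ49 and at 22.3 to 2393 RPKM elsewhere, and it was at 0 to 0.376 RPKM in ripe Zunla 1 fruit. In ZL1, which was closest to breaker fruit, Capana06g000615 was at 2.37 RPKM, whereas breaker fruit of the same line had 1583 RPKM. Line and stage cannot be told apart for these 2 genes.

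ZL1 stood out upward in Capana08g001748, at 426 RPKM against at most 8.35 RPKM in SP3, and this gene was at 183 to 1015 RPKM from breaker onwards in Zunla 1 but at 0.877 RPKM in ripe ZJ49 fruit. Downward, ZL1 had 1.24 RPKM of Capana00g001863, which was at 43.2 RPKM in ZJ49 and at 445 to 4623 RPKM in the other 7 lines. ZJ9 had 327 RPKM of Capana12g002671, against at most 4.62 RPKM in ZJ32. Its widest gap below was Capana11g001238, described above.

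ZJ32 had 68.6 RPKM of Capana02g001874, which was at 0 to 0.0596 RPKM in every other line and at 42.4 RPKM in Zunla 1 fruit of 3 to 4 cm. It had 0.366 RPKM of Capana00g000219, against 13.1 to 608 RPKM in the others. Both genes were chosen for their gap, so that ZJ32 was alone at its end of the range follows from the choice.

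In G16, SP3 and T803 the widest gaps above fell on genes that were nearly silent in Zunla 1. G16 had 438 RPKM of Capana02g002285, which was at 0 to 0.280 RPKM in the other 8 lines and listed at 0 in all 13 other Zunla 1 libraries. SP3 had 214 RPKM of Capana11g001489, against at most 0.808 RPKM in G16, and the 3 chiltepin libraries had 325 to 922 RPKM of it. T803 had 28.7 RPKM of Capana05g000583, which was at 19.9 RPKM in mature green HYL and at most 0.0895 RPKM in the other lines. The 3 genes were chosen for this gap, so a single high line follows from the choice.

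The closest pair had smaller gaps. 11c255 had 24.6 RPKM of Capana03g002793, against at most 0.171 RPKM in SP3, and this gene was listed at 0 in all 13 other Zunla 1 libraries. 11c320 had 37.3 RPKM of Capana07g002416, against 0.329 to 3.63 RPKM. Downward, 11c255 had 21.5 RPKM of Capana03g000678, against 74.1 to 206 RPKM, and 11c320 had 19.6 RPKM of Capana03g002263, against 61.8 to 114 RPKM. G16 had 0.159 RPKM of Capana03g003016, which was at 25.7 to 76.5 RPKM in the other lines and listed at 0 in all 3 chiltepin libraries. T803 had 5.87 RPKM of Capana12g000132, against 112 to 951 RPKM, and SP3 had 1.52 RPKM of Capana02g002478, against 16.7 to 285 RPKM. Each of these values is that of a single library.

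On and off genes were defined by a level of 10 RPKM or more in 1 line or several and of under 0.1 RPKM in another. There were 846 such genes, or 5.79% of the 14618 that reached 10 RPKM. An off value lies under the floor of 3 reads for a gene of 1 kb in the shallower libraries, so it shows only that reads were few or absent. Of the 846 genes 443 were off in a single line, 199 in 2 lines and 4 in 8 lines, and 40 were on in at least 3 and off in at least 3 lines.

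Off calls were most frequent in ZJ9 (373 genes) and ZJ49 (370 genes), followed by ZL1 (203), T803 (149), SP3 (146), ZJ32 (133), 11c320 (132), 11c255 (130) and G16 (71). ZJ9 and ZJ49 together made up 304 (68.6%) of the 443 genes off in 1 line only. The 2 lines were off in genes of opposite ripening behaviour. Of the ZJ49 off genes tested for ripening, 123 of 193 (63.7%) fell with ripening in Zunla 1 and 3 rose. Of the ZJ9 off genes tested, 27 of 212 (12.7%) fell and 85 (40.1%) rose. In 11c255 52 of 84 (61.9%) rose, and in ZL1 42 of 93 (45.2%) fell, while over the off genes of all lines 194 of 559 tested (34.7%) fell and 133 (23.8%) rose. Among all genes in the ripening test 27.8% fell and 8.01% rose.

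Capana02g002740 was on in 3 lines, with 1377 RPKM in ZJ49, 706 RPKM in ZL1 and 10.3 RPKM in SP3. It was at 4.86 RPKM in ZJ32, 1.58 RPKM in ZJ9 and 0.864 RPKM in G16, and at 0.0617 to 0.0647 RPKM in 11c255, 11c320 and T803. In Zunla 1 it rose from at most 0.686 RPKM in growing fruit to 1559 to 9987 RPKM after breaker (limma log2 change 11.49, SE 0.565, adjusted p = 5.47e-05). The gene whose pattern over the 9 lines was most like it was Capana07g001799 (r = 0.995, the highest of 3768 genes).

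Capana02g003144 did not follow that order. It was at 209 RPKM in ZJ9, 141 RPKM in ZJ49 and 133 RPKM in G16, at 12.9 RPKM in ZL1, and at 0.558 RPKM in ZJ32. It was at 0.128 RPKM in 11c255, at 0.0446 RPKM in 11c320, and listed at 0 in SP3 and T803. The 3 highest lines come from both depth sets and from both ends of the ripening position. The most similar gene, Capana11g002353, was at 8.40 RPKM in ZJ49, 6.92 RPKM in G16 and 6.30 RPKM in ZJ9, and at most 0.0638 RPKM in the other 6 lines (r = 0.933).

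Other libraries of the same line showed how far an off call held. Of the 203 genes off in mature green ZL1, 123 reached 10 RPKM in another of the 13 Zunla 1 libraries and 10 (4.93%) were off in all of them. Of the 370 genes off in mature green ZJ49, 256 (69.2%) were also off in ripe ZJ49 fruit, but 254 (68.6%) of the same genes were off in ripe ZL1 fruit. Only 12 of the 370 were at 1 RPKM or more in ripe fruit of both ZL1 and ZJ7, and 1 of them was off in ripe ZJ49.

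The difference between ZL1 and ZJ49 could be set beside the same difference 5 days after breaker. The 2 log2 differences correlated across the 21036 genes with a Pearson r of 0.239 and a Spearman rho of 0.308, and genes are no independent replicates. Of the 955 genes at least 4-fold higher in ZL1 at mature green, 48.4% were higher in ripe ZL1 fruit and 61 (6.39%) at least 4-fold, against 1.08% of all genes. Of the 904 genes at least 4-fold higher in ZJ49, 71.7% were higher in ripe ZJ49 fruit and 77 (8.52%) at least 4-fold, against 1.03% of all genes. Over all genes 35.2% were higher in ripe ZL1 and 60.3% in ripe ZJ49 fruit. Most large differences between these 2 lines at mature green were therefore not present in the ripe libraries at that size.

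The most abundant transcripts were partly shared. Capana03g003187 was the most abundant gene in 7 of the 9 lines, with 19442 to 57975 RPKM over all 9. ZL1 was led by Capana01g000309 at 70865 RPKM, a gene at 14.9 to 28679 RPKM in the other lines. Of the 36 genes that were among the 10 most abundant of any line, 1 was so in all 9 lines and 12 in 1 line only. An SD of at least 1 was found in 31 of the 36, against 17.9% of all genes tested. A gene enters this group through any 1 line where it is high, which by itself raises its SD over the same lines. In ZL1 38.9% of the summed RPKM fell on its 10 most abundant genes, against 10.04% to 20.05% in the other 8 lines. This share was not shown to follow the ripening position (n = 9, Pearson's r = 0.40, exact permutation p = 0.259, adjusted 0.259; Spearman's rho = 0.13, exact permutation p = 0.744, adjusted 0.744; r = 0.25 without ZJ49 and ZL1). It is 1 of 3 relations computed, over which the p-values were adjusted.

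The first component of 14234 genes without a ripening call was set against the ripening position as well. It separated the deeper lines, from -53.4 in 11c255 to -11.1 in SP3, from the shallower ones, from 34.2 in ZJ32 to 70.0 in ZJ49. Its relation to the ripening position did not pass the threshold (n = 9, Pearson's r = 0.57, exact permutation p = 0.112, adjusted 0.168; Spearman's rho = 0.47, exact permutation p = 0.213, adjusted 0.638). Without ZJ49 and ZL1, the lines farthest from the median position, r was 0.01, so the value rests on those lines. Without ZJ9 it was 0.88 (exact permutation, adjusted p = 0.0093). Neither depth set holds enough lines for a value within it. For the third relation, genes at 1 RPKM or more against read total, the totals form 2 separate clusters of 4 and 5 libraries, so no pooled value is given.

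Variable genes with neighbouring IDs tended to vary together. In 517 pairs of consecutive IDs both genes had an SD of at least 1, and the median r of such a pair over the 9 lines was 0.561, against 0.0743 for all pairs of variable genes. An r of at least 0.9 was found in 101 of these pairs (19.5%), against 1.21% of all pairs. Only 2 runs of 3 consecutive IDs held together at this level. Capana03g003832 to Capana03g003834 had a median of 1331 RPKM in ZL1, 658 RPKM in SP3 and 0.187 RPKM in ZJ9, and Capana12g000233 to Capana12g000235 one of 46.8 RPKM in G16 and 0.0564 RPKM in ZL1. Near-identical neighbours can share reads, and how the authors' counting treated such reads is not given in the sources used here.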

How the data were processed

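Poly(A) RNA was sequenced in pairs (HiSeq 2000), per the labels' protocols. The authors deposited 1 table of RPKM for 31426 genes and 33 libraries, with 0 further columns left unused. For aligner, counter, build and annotation the entry is "not given in the sources used here". A RefSeq gene table (assembly UCD10Xv1.1) held 0 of the IDs.

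RPKM values are whole multiples of the value of 1 read, which gave gene lengths for 25556 genes (taken as multiples of 3, median 972 bases) and read totals; 99.9997% of their values were whole within 0.01 reads, partly by construction. Read pairs may have been counted as 2 reads, and counting error would then be understated. Chi-square per gene was at least 86.9 for any pair of lines, so none was a duplicate.

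Genes reaching 1 RPKM in 2 or more lines were kept, and SDs, correlations and folds are on log2(RPKM + 1), which understates changes of low genes. Contrasts used limma 3.58.1 in R 4.3.3 (lmFit, eBayes with trend, two-sided, Benjamini-Hochberg, for ripening, genes reaching 1 RPKM in 3 or more libraries); lines or stages stand in for replicates. Python 3.11.15 was used otherwise. The fits were checked on simulated data. Named genes were the 2 of highest and 2 of lowest SD, 2 on and off genes, the widest gap above and below for each line, the largest called rise and fall between depth sets, and the most similar gene for 4 of these. Members, lists and tests were chosen with earlier results of these data known. Alternatives were median-of-ratios scaling, a pseudocount of 0.1, dropping the filter, other limits, single depth sets and leaving out each line.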

Additional observations from a re-analysis of the deposited data

Results flagged for a closer look

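Over 28 measures with 1 value per line, the lowest and the highest line were compared with the rest by Dixon's ratio, and 2 measures had a line far from the others. Chance alone places about 5% of such groups past the limit. In ZL1 38.9% of the summed RPKM fell on its 10 most abundant genes, far above the other 8 lines. ZJ49 had 107 genes at least 4-fold above all other lines, far above the 48 of the next line. With scaling ZJ49 had 89 and ZL1 78, so ZJ49 then stood close to the next line.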

How the results depend on the processing

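The 3769 genes with an SD of at least 1 became 6909 with a pseudocount of 0.1, 1881 in the deeper lines alone, 1908 without genes called for ripening and 2149 among genes with a mean of at least 10 RPKM, and were 3419 to 3990 with 1 line left out. The 1162 genes with an SD under 0.25 became 6394 without a filter, 1968 in the shallower lines alone, 6673 in the deeper lines alone and 720 at a mean of at least 10 RPKM (1105 to 1724 with 1 line left out). The median SD was 0.331 in the deeper lines alone and 0.534 to 0.582 with 1 line left out. Fewer genes or lines enter most of these settings, but the cause of the changes was not tested for any of them. The genes called between depth sets numbered 956 to 3342 with 1 line left out, and the Zunla 1 ripening calls 4752 to 6602 with 1 stage left out. On and off genes were 1400 with 5 RPKM as the limit for on, and 639 to 822 with 1 line left out. The gap between depth sets was 0.193 to 0.373 with 1 line left out, and 0.118 with 1 line of the close trio (exact permutation p = 0.114), where fewer splits exist. The median r of pairs was 0.832 to 0.843, and the relation of the 10 most abundant genes to ripening position had r of 0.05 to 0.76, with 1 line left out. The first component without ripening genes had an r with ripening position of 0.38 to 0.88 with 1 line left out, and passed the threshold without ZJ9 alone. The cause was not tested. The excess of higher over lower genes between depth sets turned without ZL1 (1647 higher, 1695 lower), and the share of higher genes fell from 62.7% to 51.6% with scaling. No gap, named depth difference or correlation changed sign in the alternatives run. For the first component this was fixed in advance. Its sign was set in each alternative to give a positive r with ripening position, so its r could not change sign. Of the 308 SDs of named genes 287 stayed within 1.5 times. The 8 lost calls among named genes were all of Capana01g003498. No paired analysis was possible because each line was 1 library and the labels carry no replicate numbers. Depth limits off calls, which lie under the 3-read floor of shallower libraries.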
